A study of Mus musculus with 9 samples.

Results

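The genes described here are 48 members of the ATP-binding cassette (ABC) family of the mouse, out of 22322 genes in the deposited table. They were chosen by name alone, as every gene whose symbol is Abc followed by a subfamily letter from a to g, a number and sometimes a final letter, leaving out the cholesterol exporters Abca1 and Abcg1. ABC proteins bind ATP, and most of them use it to move a lipid, bile salt, drug, peptide or conjugated metabolite across a membrane. Members of subfamilies E and F have no part that crosses a membrane and act at the ribosome. In the retina the family is best known for the retinoid transporter of photoreceptors, encoded by Abca4, and for the efflux pumps that guard the vessels, P-glycoprotein and Abcg2.

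RNA was sequenced from 9 libraries of mouse cells labelled as retinal ganglion cells (RGCs) of wild-type genotype, 3 in each of 3 groups. Normal RGCs were grown in complete medium, aging RGCs had been treated with D-galactose, a sugar used to bring on senescence in culture, and aging RGCs + USCs medium (medium-treated below) had D-galactose and then medium conditioned by human urine-derived stem cells (USCs), with those cells removed. Both aging groups therefore carried D-galactose, and none of the 9 libraries was of normal RGCs in USCs medium. The cells were bought from a company and passaged with trypsin, neither strain nor age being stated in the sources used here, and the replicates of a group were 3 culture wells, so p-values measure the spread between wells of the same bought cells. The comparison of aging with normal RGCs asks what D-galactose changed. That of aging RGCs + USCs medium with aging RGCs asks what the conditioned medium as a whole changed. Both use the same 3 aging libraries. The paper grew USCs in a special medium and RGCs in high glucose medium with serum, and describes no group in unconditioned USC medium. The base medium and what the USCs released therefore cannot be told apart.

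A normal library held between 19814241 and 22342288 counts, an aging one between 18189616 and 19556335 and a medium-treated one between 20238824 and 21054326, and ABC members took 0.18% to 0.19% of them. The RGC markers Pou4f2 and Pou4f3 were at 0 in all 9 libraries, and 4 of 10 RGC markers were abundant enough to be tested. Levels are given as CPM, a gene's count over the total of its library, scaled with edgeR's TMM factors. Normal libraries had 139 to 150 CPM over all 10 markers, aging ones 99.2 to 103 and medium-treated ones 75.4 to 83.5. Nearly all of it was Nefl, Rbpms and Isl1, while Pou4f1 was found in every library at 0.103 to 1.37 CPM. From aging to medium-treated libraries most of the fall was in Nefl, from a mean of 38.4 to 17.3 CPM, while Rbpms (49.6 and 48.0 CPM, edgeR adjusted p = 0.490) and Isl1 (adjusted p = 0.314) did not pass the test. Of 10 macrophage markers 8 were tested. All 10 summed to 59.2 to 70.1, 44.7 to 51.3 and 30.9 to 54.8 CPM, the highest of the last group being its replicate 3. Most of it was Cd68, with means of 38.6, 41.5 and 31.3 CPM, which did not pass in aging against normal RGCs (edgeR adjusted p = 0.237). Scarcer markers fell there, Lyz2 from a mean of 15.3 to 3.16 CPM, Csf1r from 3.42 to 1.13, Adgre1 from 1.84 to 0.0529 and C1qb from 0.694 to 0. Ptprc, at 1.59 and 1.19 CPM, did not pass (adjusted p = 0.330). Endothelial markers, 2 of 5 tested with Cldn5 at 0 throughout, summed to 11.8 to 13.6, 7.85 to 8.76 and 1.89 to 2.62 CPM, most of it Cdh5, which fell from a mean of 7.16 to 1.42 CPM with the medium. Epithelial markers, 4 of 8 tested, summed to 1047 to 1141 CPM in the normal group, 1077 to 1103 in the aging one and 1236 to 1285 with the medium. Nearly all of it was Krt8, Krt18 and Krt19, which went different ways. Krt8 had means of 410, 560 and 714 CPM, Krt18 321, 252 and 281, and Krt19 365, 274 and 258. Glial markers, 1 of 6 tested, summed to 97.4 to 106, 94.4 to 97.3 and 126 to 129 CPM, nearly all of it Glul. Mesenchymal markers summed to 2135 to 2189, 2366 to 2446 and 2147 to 2284 CPM. Most of it was Vim, with means of 1695, 2006 and 1970 CPM, and Col3a1, with 447, 389 and 235. Retinal pigment epithelium markers, nearly all Mitf, summed to 33.4 to 34.8, 23.0 to 26.7 and 27.8 to 29.7 CPM. Photoreceptor markers did not exceed 0.771 CPM. In such bulk samples fewer cells of a type and less RNA per cell cannot be told apart, and the part of these marker changes in the results on ABC genes was not tested.

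The promoters of 6 members are shown first, since their RNA carries much of what follows. Each holds 250 bases before and 50 after the start site, read 5′ to 3′ on the strand of the gene, from RefSeq on GRCm38.p6. Abca8b, Abca8a and Abca9 are neighbours whose RNA fell, that of Abca9 with the medium alone. Abcb11, Abcb1b and Abce1 are members whose RNA rose in both steps from normal RGCs to aging RGCs to aging RGCs + USCs medium. Capitals mark a GC box, a CCAAT box, an E-box and a spaced inverted repeat, each on either strand and spelled out after the sequences.
Abca8b, chr11:109995796-109996095, minus strand: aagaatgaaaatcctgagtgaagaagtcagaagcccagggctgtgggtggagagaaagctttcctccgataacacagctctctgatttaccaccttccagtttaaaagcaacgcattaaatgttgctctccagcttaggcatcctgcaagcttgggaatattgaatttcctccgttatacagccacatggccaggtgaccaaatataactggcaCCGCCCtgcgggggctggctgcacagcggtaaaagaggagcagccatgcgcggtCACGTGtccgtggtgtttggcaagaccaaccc
Abca8a, chr11:110095888-110096187, minus strand: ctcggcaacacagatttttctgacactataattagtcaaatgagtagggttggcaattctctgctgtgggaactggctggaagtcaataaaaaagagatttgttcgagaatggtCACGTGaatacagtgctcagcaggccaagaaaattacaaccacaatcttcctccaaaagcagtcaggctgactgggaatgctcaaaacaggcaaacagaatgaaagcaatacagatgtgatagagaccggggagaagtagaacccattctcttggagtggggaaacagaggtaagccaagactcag
Abca9, chr11:110168104-110168403, minus strand: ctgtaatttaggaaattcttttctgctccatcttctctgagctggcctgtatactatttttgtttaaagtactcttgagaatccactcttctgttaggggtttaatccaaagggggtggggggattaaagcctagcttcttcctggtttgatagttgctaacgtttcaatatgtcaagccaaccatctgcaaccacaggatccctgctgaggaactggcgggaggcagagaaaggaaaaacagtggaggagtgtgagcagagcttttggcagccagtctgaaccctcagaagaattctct
Abcb11, chr2:69342567-69342866, minus strand: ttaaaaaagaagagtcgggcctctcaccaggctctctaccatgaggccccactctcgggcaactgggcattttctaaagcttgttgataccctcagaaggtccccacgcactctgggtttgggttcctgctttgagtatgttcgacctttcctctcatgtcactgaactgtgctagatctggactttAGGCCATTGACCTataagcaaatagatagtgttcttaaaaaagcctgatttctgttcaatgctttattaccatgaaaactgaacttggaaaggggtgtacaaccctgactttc
Abcb1b, chr5:8797897-8798196, plus strand: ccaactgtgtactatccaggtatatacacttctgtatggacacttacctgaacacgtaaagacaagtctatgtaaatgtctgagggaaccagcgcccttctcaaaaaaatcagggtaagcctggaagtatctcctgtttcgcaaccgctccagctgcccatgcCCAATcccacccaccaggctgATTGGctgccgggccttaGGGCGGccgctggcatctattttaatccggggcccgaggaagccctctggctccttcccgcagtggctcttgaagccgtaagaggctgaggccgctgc
Abce1, chr8:79711691-79711990, minus strand: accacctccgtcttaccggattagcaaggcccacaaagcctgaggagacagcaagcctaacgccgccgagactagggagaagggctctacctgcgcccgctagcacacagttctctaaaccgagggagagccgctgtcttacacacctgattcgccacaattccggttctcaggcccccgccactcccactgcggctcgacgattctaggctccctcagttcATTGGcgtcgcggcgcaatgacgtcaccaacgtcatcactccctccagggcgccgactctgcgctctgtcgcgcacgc

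Over all 32851 RefSeq promoters of this length, 35.7% held the GC box GGGCGG on either strand, as did 20 of the 44 promoters that 37 members had. The CCAAT box is named by its letters and was in 37.4% of all promoters and 16 of the 44. An E-box, spelled CACGTG, was in 7.15% of all promoters and 5 of the 44, and it stood at +18 in Abca8b and at -136 in Abca8a. In the Abcb11 promoter the inverted repeat AGGNCANTGNCCT stood at -63 and overlapped, at -56, the nuclear receptor motif AGGTCA that 16.3% of promoters held. Inverted repeats of that motif with a 1-base spacer are the textbook binding motif of the bile acid receptor FXR. The form in capitals leaves 1 base free on each side, was searched after the sequence had been seen, and occurred in 29 promoters (0.0883%). The strict form, AGGTCANTGACCT, occurred in 3 promoters and in none of a member. The TATA box TATAAA, in 13.6% of all promoters, was in none of the 6 sequences. The Abce1 promoter had a GC content of 61.7% and 27 CpG sites and the Abca9 promoter 45.3% and 2, beside a median of 52.7% and 7 over all promoters. A match is a description of these letters and not of binding.

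Of the 48 members, 34 had enough counts to be tested and 14 did not. Abca14, Abca15, Abca16, Abcb5 and Abcg3 had 0 counts in all 9 libraries, and Abca13, Abca17, Abcc2, Abcc6, Abcc8, Abcc9, Abcc12, Abcg5 and Abcg8 had at most 9 counts in any library. The sulfonylurea receptors Abcc8 and Abcc9, regulatory subunits of ATP-sensitive potassium channels, and the plant sterol exporters Abcg5 and Abcg8 were thus barely detected. Of the members tested, 28 reached the line of the low-count filter (0.498 CPM before scaling) in every library. Abca4, Abca8a, Abca12, Abcb4, Abcb9 and Abcg4 reached it in 4 to 7 libraries, so they were tested through the libraries where they were high and the counts of calls below are descriptions.

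Between genes, levels were compared per length as FPKM. The ribosome factor Abce1 was the most abundant member, with a mean FPKM of 96.1 in normal RGCs, 108 in aging RGCs and 132 in aging RGCs + USCs medium, followed by Abcf1 and Abcf2. Abcg2 led the membrane pumps at a mean FPKM of 35.5, 39.3 and 29.4. Abca8a and Abca12 were among the lowest, at or below 0.227 in every group mean. Summed over their 4 members, the ribosome and translation factors held 50.7% of the family's FPKM in normal RGCs, 54.2% in aging RGCs and 61.7% in aging RGCs + USCs medium, while the 15 class A transporters held 7.93%, 6.84% and 4.48%.

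**Figure D1:**
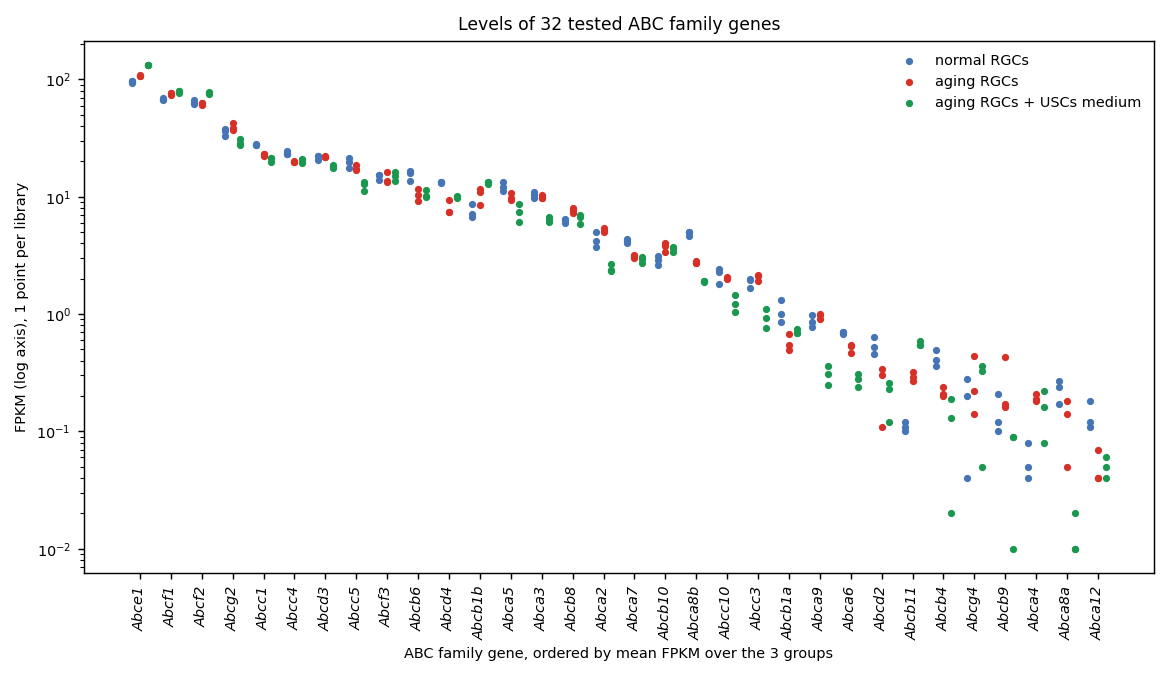
FPKM of 32 tested members on a log axis, 1 point per library, with genes ordered by their mean over the 3 groups. Abce1 stood at the high end, with group means from 96.1 to 132, and Abca12 at the low end, with group means from 0.05 to 0.137.

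A member was called at an adjusted p under 0.05 in edgeR's quasi-likelihood test over all 12145 genes tested, and a differentially expressed gene (DEG) also had to change by 1 or more on the log2 scale. In aging against normal RGCs, 9 members were higher (26.5%, beside 23.6% of all genes tested) and 12 lower (35.3%, beside 23%). With the fold line, 2 were upregulated DEGs (beside 1.09%), Abca4 and Abcb11, and 3 downregulated DEGs (beside 1.56%), Abca8a, Abca12 and Abcd2. The groups did not overlap for 23 of the 34 members, beside 53% of all genes. The median log2 fold change was -0.0046 over the members and 0.0018 over all genes.

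With the conditioned medium, 8 members were higher than in aging RGCs (23.5%, beside 27.1% of all genes) and 14 lower (41.2%, beside 26%). Abcb11 was the upregulated DEG (1 member, beside 1.24%), and Abca8a, Abca9, Abcb9 and Abcc3 were downregulated DEGs (4 members, beside 4.21%). Aging and medium-treated libraries did not overlap for 24 of the 34, beside 59.8%. The median log2 fold change was -0.20 over the members and -0.0067 over all genes. Without TMM factors 5 members were higher and 16 lower, and the share of higher calls among all calls was 35.8% in place of 51.1%.

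Set against normal RGCs, the medium-treated cells had 9 members higher (26.5%, beside 30.6% of all genes) and 21 lower (61.8%, beside 29.9%). Abca4 and Abcb11 were upregulated DEGs (2 members, beside 1.47%), and Abca6, Abca8a, Abca8b, Abca9, Abca12, Abcb4 and Abcd2 downregulated DEGs (7 members, beside 5.24%). Normal and medium-treated libraries did not overlap for 29 of the 34, beside 63.8%. The median log2 fold change was -0.44 over the members and -0.013 over all genes. Leaving out TMM factors moved the median of all genes to -0.11, gave 7 members higher and 22 lower, and took the share of higher calls among all calls from 50.6% to 34.7%. Without medium-treated replicate 3, whose macrophage markers were highest of its group, 9 members were higher and 19 lower than in normal RGCs, and 9 higher and 13 lower than in aging RGCs.

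**Figure D2:**
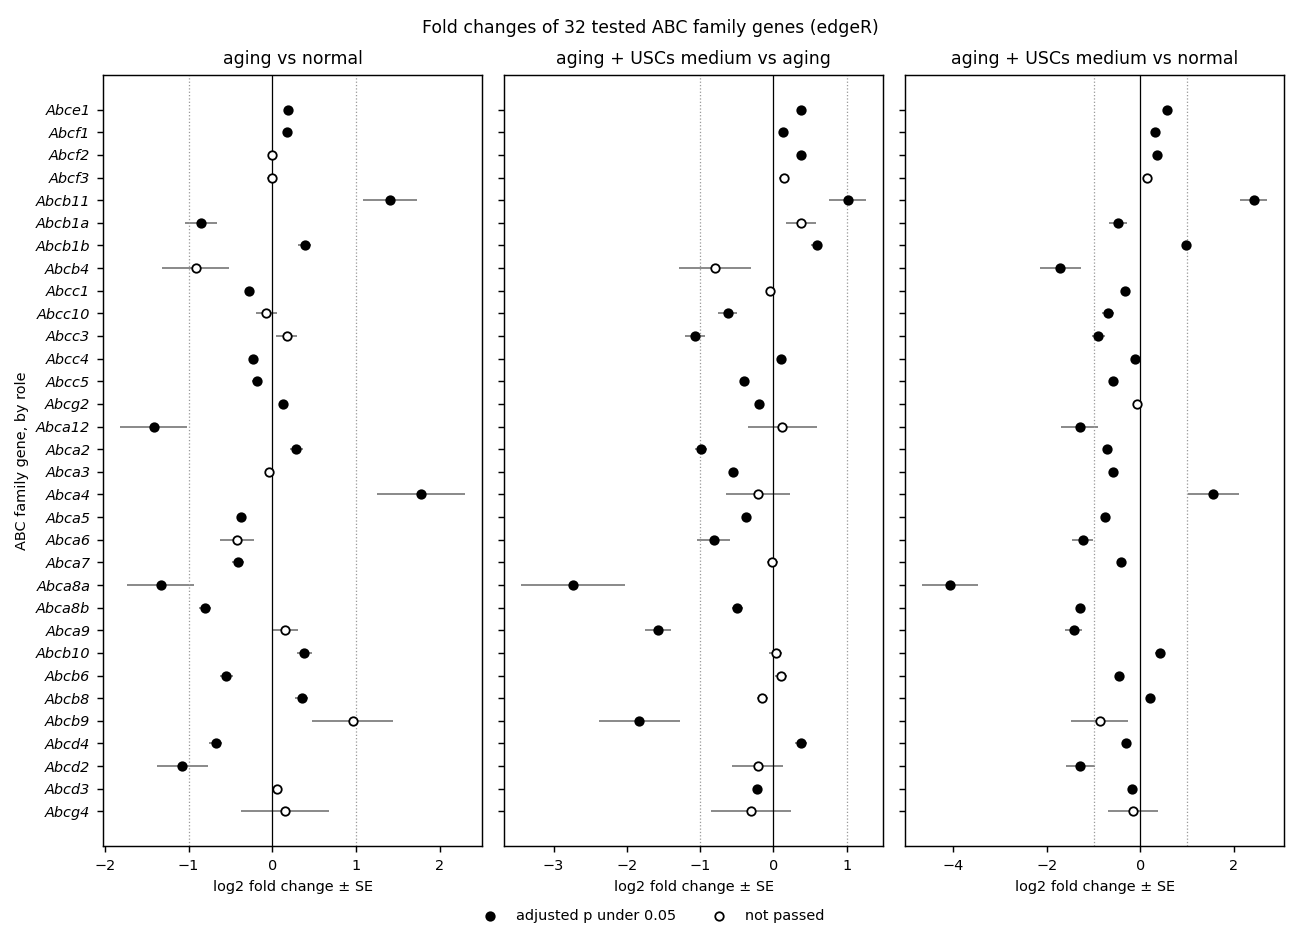
Log2 fold change ± SE of 32 tested members, grouped by role, for the 3 comparisons, with dotted lines at -1 and 1. Filled points passed the edgeR test at an adjusted p under 0.05; Abcb11 lies to the right of 0 and Abca8a to the left in all 3 comparisons.

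Class A transporters move phospholipids, sterols and retinoids. Of 15 genes 10 were tested, and in aging against normal RGCs 2 rose and 5 fell, where 23.6% and 23% of all genes tested did. With the medium against aging RGCs 7 fell, beside 26% of all genes, and 3 did not pass. Against normal RGCs 1 rose and 9 fell, beside 30.6% and 29.9% of all genes. Normal libraries had a summed FPKM of 35.8 to 41.0 for the class, aging ones 32.4 to 33.9 and medium-treated ones 20.4 to 23.7, 3 ranges that did not overlap. Of the markers named above, Nefl, Rbpms, Csf1r, Ptprc, Cdh5, Krt19 and Col3a1 had the same order of groups by their means. Isl1, Pou4f1, Cd68, Lyz2, Adgre1, C1qb, Krt8, Krt18, Vim, Glul and Mitf did not, and a link of any marker to the class was not tested.

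A group of 5 class A genes lies side by side on chromosome 11 on the minus strand, in the order Abca8b, Abca8a, Abca9, Abca6 and Abca5 from 109932190 to 110337716 (GRCm38), a span of 406 kb with gaps of 4.77 to 29.8 kb between genes. Less is known of what these genes carry than of other class A members; Abca5 is a lysosomal lipid transporter. All 5 were lower with the medium than in aging RGCs, with no overlap between the libraries of the 2 groups, where 26% of all genes tested were called lower and 59.8% did not overlap. Each is described below.

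Abca8b measured 34.6, 36.4 and 32.5 CPM in normal RGCs, 19.8, 19.5 and 19.9 in aging RGCs and 13.8, 13.9 and 14.4 in aging RGCs + USCs medium. The 3 groups were apart from each other in every library. Its log2 fold change was -0.80 ± 0.07 (SE) in aging against normal RGCs (edgeR adjusted p = 1.83e-10), -0.49 ± 0.08 with the medium against aging RGCs (adjusted p = 4.80e-06) and -1.30 ± 0.07 against normal RGCs. Part of its exons, 241 bases, is shared with a gene on the other strand, and whether the counting used strand is not given in the sources used here.

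Abca8a had few reads, 30, 30 and 19 counts in normal RGCs, 5, 13 and 10 in aging RGCs and 1, 1 and 2 in aging RGCs + USCs medium. Every library of a group lay below every library of the group before it. In aging against normal RGCs its log2 fold change was -1.33 ± 0.40 (edgeR adjusted p = 0.00772), a call that was lost without aging replicate 1 (adjusted p = 0.0561). With the medium the ratio of its summed counts, scaled to library size, was 0.139 to aging RGCs (95% interval 0.0355 to 0.398) and 0.0548 to normal RGCs (0.0146 to 0.146), intervals that cover counting error only, with edgeR adjusted p = 0.0018 and 8.95e-07. Abca8a and Abca8b share 105 of their 50-base windows, 1.89% and 1.42% of each.

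Abca9 was level before the medium and low after it. Its CPM was 5.33, 4.85 and 6.17 in normal RGCs and 5.62, 6.39 and 6.18 in aging RGCs, ranges that overlapped, and 2.41, 2.03 and 1.64 in aging RGCs + USCs medium. The log2 fold change with the medium was -1.58 ± 0.18 against aging RGCs (edgeR adjusted p = 2.83e-08) and -1.42 ± 0.18 against normal RGCs (adjusted p = 1.17e-07). Its neighbour Abca6 had 3.55, 3.49 and 3.60 CPM in normal RGCs, 2.81, 2.42 and 2.73 in aging RGCs and 1.70, 1.54 and 1.28 in aging RGCs + USCs medium. Abca6 libraries of the 3 groups did not overlap, and its fall passed against aging RGCs at -0.82 ± 0.23 (adjusted p = 0.00373) and against normal RGCs at -1.23 ± 0.22, but not in aging against normal RGCs (adjusted p = 0.0929). Abca5 fell at each step, from a mean of 81.8 CPM to 63.0 and 48.8, with log2 fold changes of -0.38 ± 0.046 and -0.37 ± 0.049.

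**Figure D3:**
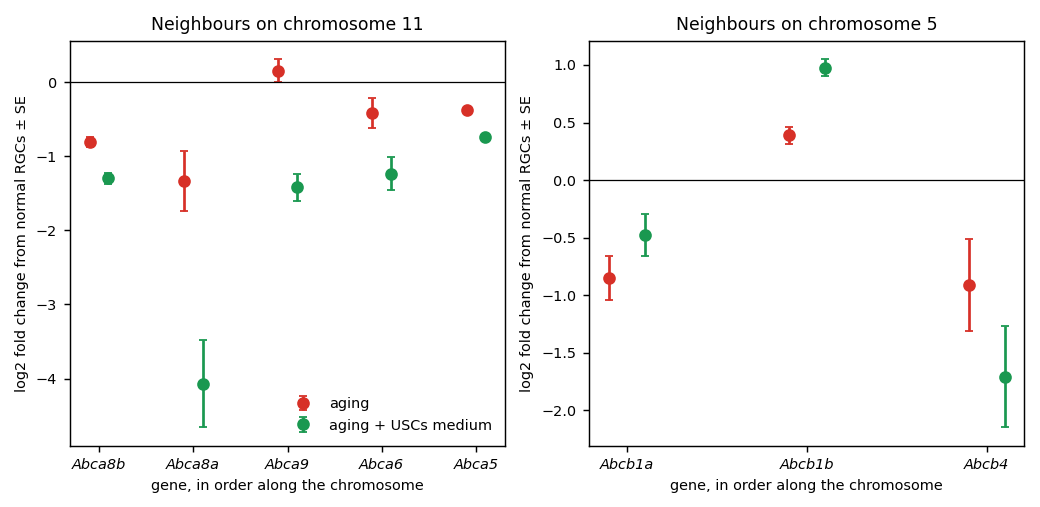
Log2 fold change from normal RGCs ± SE of aging RGCs (red) and aging RGCs + USCs medium (green) for the 5 class A neighbours of chromosome 11 and the 3 efflux pump neighbours of chromosome 5, in order along the chromosome. All 5 class A genes lie below 0 with the medium, whereas Abcb1b lies above 0; the split of counts between it and Abcb1a is uncertain.

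Abca4, the photoreceptor retinoid transporter (chromosome 3, 122044443 to 122180123), was scarce and higher in both D-galactose groups. It had 0.303, 0.145 and 0.197 CPM in normal RGCs, 0.703, 0.773 and 0.810 in aging RGCs, and 0.308, 1.04 and 0.615 in aging RGCs + USCs medium. The log2 fold change was 1.78 ± 0.53 in aging against normal RGCs (edgeR adjusted p = 0.00681) and 1.56 ± 0.54 with the medium against normal RGCs (adjusted p = 0.0139). The latter was lost without normal replicate 2 (adjusted p = 0.0561) or medium-treated replicate 2 (adjusted p = 0.153), and medium-treated replicate 1 lay close to the normal libraries. Of the 6 photoreceptor markers, Rcvrn, Crx and Arr3 were at 0 in all 9 libraries.

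Abca12, which loads lipid into the lamellar granules of skin cells (chromosome 1, 71242276 to 71414910), had 1.56, 0.969 and 1.09 CPM in normal RGCs, 0.379, 0.618 and 0.354 in aging RGCs and 0.360, 0.595 and 0.512 in aging RGCs + USCs medium. Both D-galactose groups lay below the normal libraries and overlapped each other. Its log2 fold change was -1.41 ± 0.40 in aging against normal RGCs (edgeR adjusted p = 0.00469) and -1.30 ± 0.39 with the medium against normal RGCs (adjusted p = 0.00559), the latter lost without normal replicate 1 (adjusted p = 0.0509).

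Abca2, a transporter of endosomes and lysosomes that bears on sterol traffic, moved in opposite directions at the 2 steps. Its CPM was 38.8, 29.2 and 32.7 in normal RGCs, 39.9, 42.7 and 40.4 in aging RGCs and 22.5, 19.5 and 19.9 in aging RGCs + USCs medium. It rose by 0.29 ± 0.08 on the log2 scale in aging RGCs (edgeR adjusted p = 0.00321) and fell by 0.99 ± 0.08 with the medium (adjusted p = 5.80e-11), which left it below normal RGCs (log2 fold change -0.71 ± 0.08). The rise passed with any library left out. It was lost in limma on log2(FPKM + 1) (limma adjusted p = 0.0759) and on log2(FPKM + 0.1) (adjusted p = 0.0894). Abca3, the surfactant lipid transporter of the lung, had a mean of 65.0 CPM in normal and 63.5 in aging RGCs and fell to 43.3 with the medium (log2 fold change -0.55 ± 0.06 against aging RGCs). Abca7, a phospholipid transporter linked to Alzheimer disease, fell from 27.2 CPM to 20.5 in aging RGCs (-0.41 ± 0.07) and measured 20.3 with the medium.

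**Figure D4:**
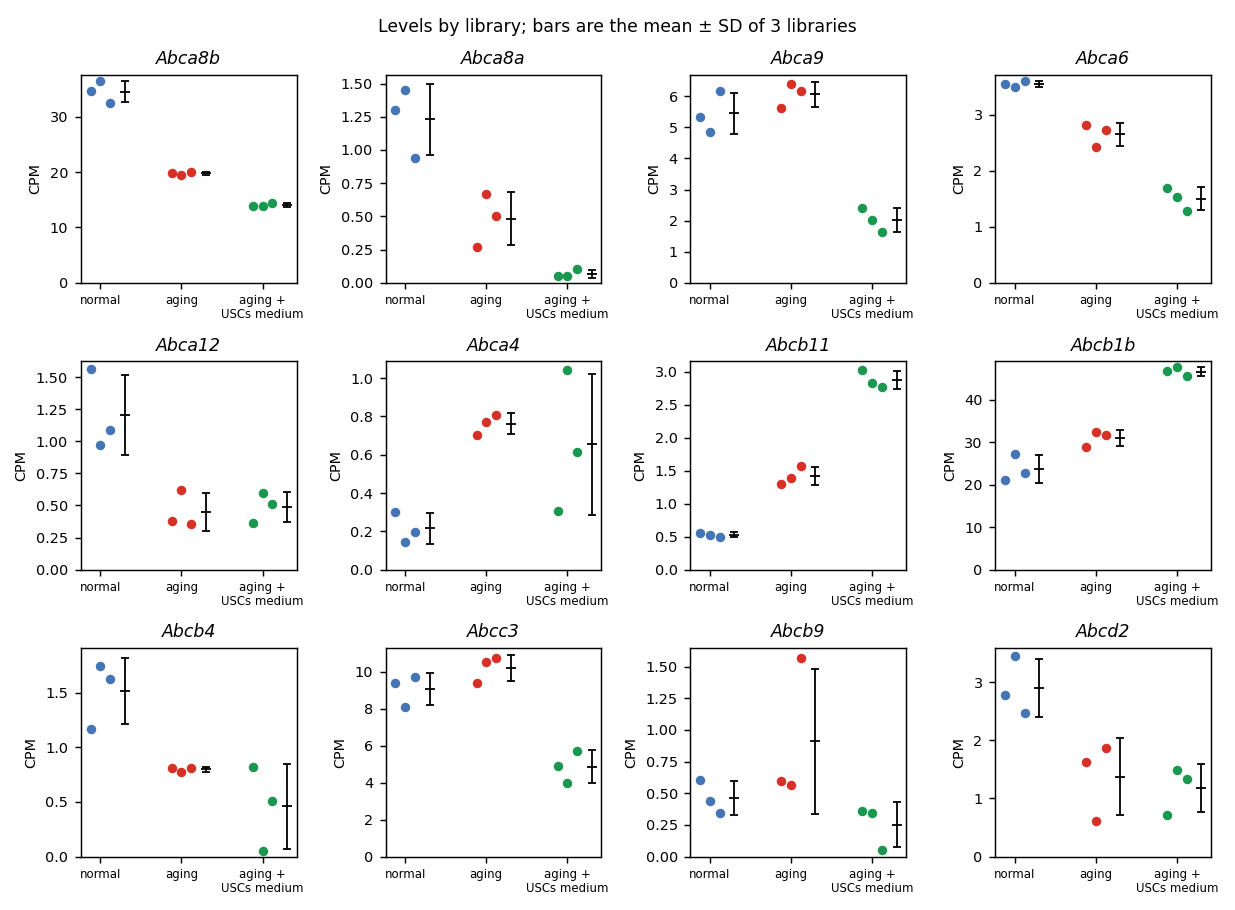
CPM of 12 members by library, with black bars for the mean ± SD of 3 libraries and each vertical axis starting at 0. Abcb11 climbs from a mean of 0.53 CPM in normal RGCs to 1.42 and 2.88, Abca8b steps down from 34.5 to 19.8 and 14.0, and Abcb9 shows 1 aging library at 1.57 CPM above the others.

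Efflux pumps carry drugs, bile salts, phospholipid and conjugated metabolites out of cells. Of 14 genes 10 were tested; 3 rose and 4 fell in aging against normal RGCs, 3 rose and 4 fell with the medium against aging RGCs, and 2 rose and 7 fell with the medium against normal RGCs. The shares of all genes tested that rose and fell were 23.6% and 23%, 27.1% and 26%, and 30.6% and 29.9%. Members of the group went in both directions at each step.

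Abcb11, the bile salt export pump of hepatocytes (chromosome 2, 69238282 to 69342616, minus strand), had the largest rise of the tested members with the medium against either group, though from a low level. It had 0.563, 0.533 and 0.493 CPM in normal RGCs, 1.30, 1.39 and 1.57 in aging RGCs and 3.03, 2.83 and 2.77 in aging RGCs + USCs medium. No library of one group reached the range of another. The log2 fold change was 1.41 ± 0.32 in aging against normal RGCs (edgeR adjusted p = 6.07e-04), 1.01 ± 0.25 with the medium against aging RGCs (adjusted p = 0.00119) and 2.42 ± 0.29 against normal RGCs (adjusted p = 3.35e-08), a 5.36-fold difference. These calls held at an adjusted p under 0.05 in all 19 alternative settings of each comparison, but the size of the fold did not. The smallest log2 fold changes over those settings were 0.220, 0.274 and 0.494 in the same order of comparisons. All 3 came from limma on log2(FPKM + 1), whose pseudocount shrinks the fold of a gene at a mean FPKM of 0.11 to 0.563. With a library left out, the lowest were 1.33, 0.957 and 2.375. The rise with the medium against aging RGCs was then under the fold line. Abcb11 shares 155 exonic bases with genes on the other strand. Besides Abca8b above, other tested members with such bases were Abca3 (914), Abcb1a (553), Abcb10 (444), Abcb9 (162), Abcb1b (143) and Abcc10 (51).

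P-glycoprotein, the multidrug efflux pump, is encoded in the mouse by Abcb1a and Abcb1b, which lie beside the phosphatidylcholine exporter Abcb4 on chromosome 5 (8660077 to 8959231, a span of 299 kb, plus strand). Abcb1b had 21.1, 27.3 and 22.7 CPM in normal RGCs, 28.9, 32.4 and 31.6 in aging RGCs and 46.6, 47.6 and 45.6 in aging RGCs + USCs medium, and the groups did not overlap. It rose by 0.39 ± 0.08 on the log2 scale in aging RGCs (edgeR adjusted p = 1.31e-04) and by 0.59 ± 0.07 with the medium (adjusted p = 7.67e-08). Abcb1a had 4.16, 6.40 and 4.88 CPM, then 2.38, 2.73 and 3.39, then 3.60, 3.87 and 3.58. It fell in aging RGCs (log2 fold change -0.85 ± 0.19, adjusted p = 5.13e-04) and was lower with the medium than in normal RGCs (-0.48 ± 0.18, adjusted p = 0.0256), a call lost without normal replicate 2 (adjusted p = 0.210), medium-treated replicate 1 (adjusted p = 0.0651) or medium-treated replicate 3 (adjusted p = 0.0647), and in DESeq2 (adjusted p = 0.0717).

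The 2 genes share reads, since 15.5% of the 50-base windows of Abcb1a also occur in Abcb1b, 18% the other way, and their counts carried decimals in all 9 libraries, so the split between them is uncertain. With both summed as 1 gene, the normal libraries had 25.2 to 33.7 CPM, the aging ones 31.3 to 35.1 and the medium-treated ones 49.2 to 51.5. The sum rose by 0.23 on the log2 scale in aging RGCs (edgeR adjusted p = 0.0155) and by 0.57 with the medium (adjusted p = 2.04e-07). The share of Abcb1b in the sum was 81% to 83.5% before D-galactose, 90.4% to 92.3% after it and 92.5% to 92.8% with the medium.

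Abcb4 had 1.17, 1.74 and 1.63 CPM in normal RGCs, 0.811, 0.773 and 0.810 in aging RGCs and 0.822, 0.0496 and 0.512 in aging RGCs + USCs medium. The value of 0.0496 CPM stood for 1 count, and the aging and medium-treated groups overlapped. Its fall passed with the medium against normal RGCs (log2 fold change -1.71 ± 0.44, edgeR adjusted p = 0.00142) and not in aging against normal RGCs (adjusted p = 0.0628). With a library left out, the fold with the medium against normal RGCs ran from -2.41, without medium-treated replicate 1, to -1.17. The adjusted p was then at most 0.0164.

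Among the pumps of subfamily C, Abcc3, which exports bile salts and glucuronides across the basolateral membrane (chromosome 11, 94343295 to 94392997), had 9.40, 8.09 and 9.72 CPM in normal RGCs, 9.41, 10.5 and 10.7 in aging RGCs and 4.88, 3.97 and 5.74 in aging RGCs + USCs medium. The medium-treated libraries lay below all others, with a log2 fold change of -1.07 ± 0.14 against aging RGCs (edgeR adjusted p = 1.75e-07) and -0.90 ± 0.14 against normal RGCs. Abcc10, a broad drug exporter, had 10.3, 10.6 and 8.19 CPM, then 9.41, 8.91 and 9.42, then 6.99, 5.11 and 5.89. It too was lower only in the medium-treated libraries, by a log2 fold change of -0.63 ± 0.13 against aging RGCs (adjusted p = 2.84e-04).

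The abundant pumps moved less. Abcc1, the exporter of glutathione conjugates, fell from a mean of 178 CPM in normal RGCs to 147 in aging RGCs (log2 fold change -0.27 ± 0.036) and measured 143 with the medium. Abcc5, an exporter of cyclic nucleotides among other anions, had means of 102, 89.9 and 67.9 CPM; its fall with the medium was -0.40 ± 0.06 against aging RGCs, and that in aging RGCs (-0.19 ± 0.06), where the groups overlapped, was lost without normal replicate 1 (edgeR adjusted p = 0.0939). Abcc4 had means of 131, 112 and 121 CPM and Abcg2 73.2, 80.2 and 69.9 CPM. Their calls were small. The rise of Abcc4 with the medium (0.10 ± 0.041) was lost with any of 5 libraries left out, and that of Abcg2 in aging RGCs (0.13 ± 0.05) with any of 4. The fall of Abcc4 in aging RGCs (-0.22 ± 0.04) passed in all 19 alternative settings. So did the fall of Abcg2 with the medium against aging RGCs (-0.20 ± 0.05).

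**Figure D5:**
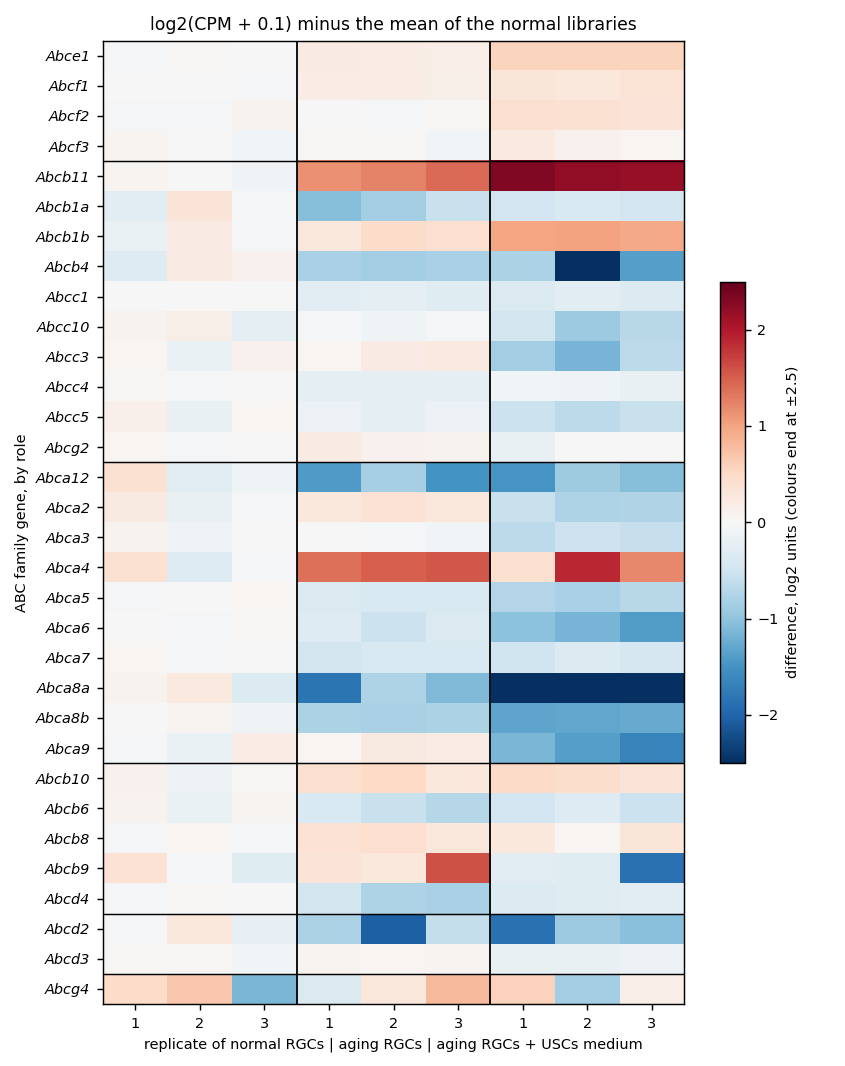
Difference of log2(CPM + 0.1) from the mean of the normal libraries for 32 tested members (rows, grouped by role) in the 9 libraries (columns), with red for higher, blue for lower and colours that end at 2.5 in either direction. Abcb11 and Abcb1b are red and Abca8a and Abca8b blue in all 6 D-galactose libraries.

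The 6 transporters of mitochondria and lysosomes were all tested. In aging against normal RGCs 2 rose and 2 fell, with the medium against aging RGCs 2 rose and 1 fell, and against normal RGCs 3 rose and 2 fell, against the same shares of all genes as for the pumps. Abcb10, which serves heme synthesis in mitochondria, had 13, 11 and 12.3 CPM in normal RGCs, 16.0, 17.1 and 14.5 in aging RGCs and 17.0, 16.4 and 15.2 in aging RGCs + USCs medium. It rose by 0.39 ± 0.09 on the log2 scale in aging RGCs (edgeR adjusted p = 0.00126), and the D-galactose groups overlapped. Abcb8 rose by 0.35 ± 0.08 in aging RGCs, from a mean of 17.5 to 22.4 CPM, and its call with the medium against normal RGCs (20.2 CPM; adjusted p = 0.0326) was lost with any of 4 libraries left out.

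Abcd4, which takes part in the export of cobalamin from lysosomes (chromosome 12, 84601464 to 84617413), fell and then partly rose. It had 28.9, 30.1 and 29.2 CPM in normal RGCs, 21.3, 17.3 and 16.8 in aging RGCs and 23.1, 24.0 and 24.4 in aging RGCs + USCs medium. The 3 groups did not overlap, with a log2 fold change of -0.68 ± 0.08 in aging RGCs (edgeR adjusted p = 4.99e-08), 0.37 ± 0.08 with the medium against aging RGCs (adjusted p = 3.24e-04) and -0.30 ± 0.08 with the medium against normal RGCs.

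Abcb9, the lysosomal peptide transporter, had 0.606, 0.436 and 0.345 CPM in normal RGCs, 0.595, 0.567 and 1.57 in aging RGCs and 0.360, 0.347 and 0.0512 in aging RGCs + USCs medium. The value of 1.57 belonged to aging replicate 3. Its log2 fold change with the medium against aging RGCs was -1.83 ± 0.56 (edgeR adjusted p = 0.00678), and -1.18 without that library (adjusted p = 0.133) or -1.35 without medium-treated replicate 3 (adjusted p = 0.0514). Abcb6, a porphyrin transporter, had 47.2, 39.5 and 46.2 CPM, then 33.9, 30.2 and 26.9, then 31.8, 35.3 and 30.4, with a log2 fold change of -0.55 ± 0.08 in aging RGCs (adjusted p = 1.08e-06). Of its 50-base windows 90.3% also occur in the overlapping gene Gm29253 on the same strand; its own counts were whole in all 9 libraries.

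Among the importers of fatty acids into peroxisomes, Abcd2, which takes up very long chain fatty acids (chromosome 15, 91145871 to 91191799), had 2.77, 3.44 and 2.47 CPM in normal RGCs, 1.62, 0.618 and 1.87 in aging RGCs and 0.719, 1.49 and 1.33 in aging RGCs + USCs medium. It was lower in both D-galactose groups, at -1.07 ± 0.30 in aging RGCs (adjusted p = 0.00466; 0.0512 without aging replicate 2) and -1.29 ± 0.31 with the medium against normal RGCs (adjusted p = 7.45e-04). Abcd3, which imports branched fatty acids and bile acid precursors, had 71.7, 71.6 and 67.1 CPM, then 73.3, 72.6 and 73.2, then 61.8, 61.8 and 63.0. Its fall with the medium was -0.23 ± 0.046 (adjusted p = 1.17e-04).

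The ribosome and translation factors moved upward where they passed. Of 4 genes, 2 rose and 2 did not pass in aging against normal RGCs, and 3 rose and 1 did not pass with the medium against either group, where 23.6%, 27.1% and 30.6% of all genes rose. Abce1 splits ribosomes for recycling after termination (chromosome 8, 79683462 to 79711740, minus strand). It had 345, 360 and 359 CPM in normal RGCs, 407, 405 and 399 in aging RGCs and 524, 524 and 523 in aging RGCs + USCs medium. The groups lay far apart beside their spread, and the log2 fold change was 0.19 ± 0.031 in aging RGCs (adjusted p = 1.03e-05), 0.37 ± 0.03 with the medium against aging RGCs (adjusted p = 3.37e-11) and 0.56 ± 0.03 against normal RGCs.

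Abcf1, which binds an initiation factor, had 210, 209 and 204 CPM in normal RGCs, 235, 236 and 231 in aging RGCs and 257, 251 and 261 in aging RGCs + USCs medium. It rose by 0.17 ± 0.033 on the log2 scale (edgeR adjusted p = 1.02e-04) and by 0.13 ± 0.033 (adjusted p = 0.00131), the latter lost without TMM factors (adjusted p = 0.177). Abcf2 had 156, 153 and 168 CPM, then 160, 154 and 161, then 209, 206 and 199, and so was higher in the medium-treated libraries alone, by 0.37 ± 0.039 against aging RGCs (adjusted p = 4.34e-09). Abcf3 had means of 37.7, 37.6 and 41.4 CPM and passed in no comparison. Abcg4, the sterol transporter of neurons and the tested member of its group, had 0.148 to 0.861 CPM over the 9 libraries and passed in none either.

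Beside the family, lists of related genes were counted by the same test, by which 23.6% of all genes rose and 23% fell in aging RGCs, 27.1% and 26% with the medium against aging RGCs, and 30.6% and 29.9% with it against normal RGCs. Among 5 ABC genes outside the naming rule (Abca1, Abcg1, Cftr, Tap1 and Tap2), 3 fell and 2 did not pass in aging RGCs, 1 rose and 1 fell with the medium against aging RGCs, and 3 fell and 2 did not pass with it against normal RGCs. Abca1 had mean CPM of 19.4, 7.39 and 4.60 and Abcg1 35.9, 12.7 and 11.4 in the 3 groups, and both were DEGs in aging and in medium-treated against normal RGCs. Of 14 transcription factors known to control ABC genes, 10 were tested; 2 rose and 5 fell in aging RGCs, 3 rose and 2 fell with the medium against aging RGCs, and 4 rose and 5 fell with it against normal RGCs. The DEG among them was Nr1h4, which encodes FXR, a factor known to drive Abcb11 in liver. Nr1h4 had 7.93, 9.35 and 8.24 CPM in normal RGCs, 15.0, 13.7 and 15.5 in aging RGCs and 21.9, 22.3 and 24.2 in aging RGCs + USCs medium, a log2 fold change of 0.80 ± 0.10 at the first step, 0.63 ± 0.09 at the second and 1.42 ± 0.09 over both (edgeR adjusted p = 1.64e-13). The groups had the same order as those of Abcb11 above, and a link between them was not tested.

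Of 12 partners of ABC proteins, such as channel subunits and chaperones, 9 were tested, with 1 higher and 2 lower in aging RGCs, 1 higher and 3 lower with the medium against aging RGCs, and 3 lower and 6 not passing against normal RGCs. These counts too stand beside 23% to 30.6% of all genes in each direction. Of 10 genes that supply or conjugate glutathione, the substrate of several subfamily C pumps, 9 were tested. In aging RGCs 1 rose and 6 fell, with the medium against aging RGCs 4 rose and 2 fell, and against normal RGCs 1 rose and 6 fell. Gstm1, a glutathione transferase, was the DEG among them, with 157, 140 and 162 CPM in normal RGCs, 110, 104 and 115 in aging RGCs and 57.6, 57.7 and 57.9 in aging RGCs + USCs medium, and a log2 fold change of -1.41 ± 0.05 over both steps (edgeR adjusted p = 5.29e-19).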

How the data were processed

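The RNA of 9 libraries, 3 per group, was enriched with oligo(dT). For 22322 genes the authors deposited an expected count, an estimated and unnormalized number of reads. They also deposited FPKM, in which the reads are divided by transcript length and library size. The build was mm10 according to the submitters' processing notes; neither the aligner, the counting program nor the use of strand is stated in the sources used here. Expected counts were rounded for the tests, since 6.92% to 7.38% of a library's values had decimals.

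Differential expression was tested in edgeR 4.0.16 (R 4.3.3). filterByExpr kept 12145 genes; with TMM factors (0.956 to 1.03), 1 mean per group and 6 residual degrees of freedom, each comparison was a contrast in the quasi-likelihood F test, with Benjamini-Hochberg adjustment over all genes tested. The SE of a log2 fold change is not given by this test and was taken as its absolute value over the square root of the F statistic. The biological coefficient of variation was 3.78%. The method was tested on simulated data. Levels are CPM scaled by TMM factors, and FPKM as deposited where genes are compared. Depth limits precision for members with few reads, where 1 count was 0.0496 CPM in medium-treated replicate 2. Gene positions are from GENCODE M21 on GRCm38 and promoters from RefSeq on GRCm38.p6.

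Members, roles, lists and alternatives were chosen with earlier results of these data known. Of the members tested, 2 are not reported here by name. Values in every library were given to DEGs and to the 3 members of each role with the largest fold change among those passing; of the related lists, DEGs were named. Between groups, deviations of same-numbered libraries from their group means had correlations of -0.0504 to 0.0483, and replicate numbers were not treated as pairs. Alternatives were DESeq2 1.42.0, a likelihood ratio test in edgeR, scaling without TMM or by upper quartiles, no filter, a filter of 1 CPM in 3 libraries, the 2 groups alone, a replicate block, a fold of 1.5, limma 3.58.1 on log2(FPKM + 1) and log2(FPKM + 0.1), and each library left out. Summing Abcb1a and Abcb1b was added after the values were seen.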

Additional observations from a re-analysis of the deposited data

How the results depend on the processing

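Of 73 member calls over the 3 comparisons, 19 were lost in at least 1 alternative and 11 when a library was left out, while 0 changed direction in edgeR, DESeq2 or limma. An alternative that removed the member or gave it no adjusted p was not counted as a loss. DEGs in aging against normal RGCs went from 5 to 2 with the 1 CPM filter, which removes members of low level, to 0 in both limma fits, with a pseudocount of 1 or 0.1, and to 8 with a fold of 1.5. For the medium against aging RGCs they went from 5 to 3 with that filter, to 0 with limma on log2(FPKM + 1) and to 10 with a fold of 1.5, and members called higher went from 8 to 5 without TMM factors and in both limma fits. For the medium against normal RGCs DEGs went from 9 to 1 with limma on log2(FPKM + 1) and to 16 with a fold of 1.5. In the 3 limma fits with 0 DEGs no member reached the fold line at any p, the largest absolute log2 fold changes being 0.654, 0.932 and 0.833, while 6 and 9, 7 and 8, and 5 and 14 members were called higher and lower; DESeq2 gave 5, 5 and 9 DEGs in the 3 comparisons. A pseudocount shrinks the folds of low members by construction; other causes were not tested. With a library left out, members higher and lower in aging against normal RGCs were 8 to 10 and 11 to 13, with 4 to 6 DEGs; with the medium against aging RGCs 7 to 9 and 13 to 15, with 4 to 6 DEGs; and against normal RGCs 8 to 9 and 19 to 21, with 8 to 10 DEGs. With a replicate block, although the numbers do not pair the libraries, higher and lower members were 9 and 12, 9 and 14, and 10 and 21 in the 3 comparisons, with 5, 5 and 9 DEGs. Of the 29 member comparisons that did not pass, 9 passed in some setting and 12 changed sign in one.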
